A study of Mus musculus with 12 samples.

Results

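Genes of the actin cytoskeleton and of the serum response were examined in embryonic stem cells (ESCs) of the mouse, pluripotent cells that are grown from the early embryo. The 41 genes were chosen by name: actins, actin-binding and myosin genes, vimentin, the transcription factor gene Srf with genes of the immediate-early and CCN kind, the galectin gene Lgals1, annexins and S100 genes. They stand among 23496 genes in the table of transcript levels, of which 12329 were expressed enough to be tested. A value was obtained for 40 of the 41, and all 40 were tested. The exception was the tropomyosin gene Tpm3, whose estimate had failed in 11 of the 12 libraries.

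The 12 RNA-seq libraries formed 3 groups of 4. One group was ESCs whose labels give a knockout of Tfcp2l1, which codes for a transcription factor related to grainyhead. They were grown in 2i, a medium that holds no serum. It contains 3 µM CHIR99021, which inhibits GSK3, and 1 µM PD0325901, which inhibits MEK, together with 1000 units/mL of the cytokine LIF. Wild-type ESCs were grown in the same 2i medium. Wild-type ESCs were also grown in a medium with 15% fetal bovine serum (FBS), without the 2 inhibitors and with LIF at 1000 units/mL. The strain, the sex and the clones of the cells and the way the knockout was made are not given in the sources used here. Expression of Tfcp2l1 (NM_023755, chr1:120524522-120581745; all coordinates of genes are on mm9) stood at 76.1, 72.01, 82.95 and 84.7 FPKM in knockout cells and at 133, 143, 112 and 139 FPKM in wild-type cells in 2i. Tfcp2l1 in wild-type cells in FBS stood at 25.8, 37.1, 30.7 and 31.5 FPKM. The knockout kept 59.8% of the mean of wild-type cells in 2i, and a value over the whole transcript does not check what the knockout changed in the gene. The general ESC marker Pou5f1 ran at 804 ± 24.2 FPKM in knockout cells, 936 ± 65.2 FPKM in wild-type cells in 2i and 760.3 ± 73.4 FPKM in wild-type cells in FBS (SD, n = 4 each), lower in the knockout at -0.22 ± 0.07 (adjusted p = 0.0193) and higher in 2i than in FBS at 0.30 ± 0.07 (adjusted p = 0.00126). Of 10 ESC markers 5 were lower (50%, against 21.4% of all genes tested) and 1 higher (10%, against 24%) in the knockout. Between media 6 were higher (60%, against 37.1%) and 1 lower (10%, against 35.3%) in 2i than in FBS.

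Actin exists as single subunits and as filaments, and the balance between the pools is read by the transcription factor SRF. SRF binds CArG boxes in promoters together with either of a pair of cofactor families. The myocardin-related factors MRTF-A and MRTF-B are held back by free actin and act on genes of the contractile apparatus when RhoA drives filaments to form. The ternary complex factors, such as Elk1, are phosphorylated by ERK and act on immediate-early genes such as Fos. Serum is the classical stimulus of both arms, and MEK, the target of PD0325901, is the kinase that activates ERK.

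CArG boxes were looked for in the 250 bases upstream of the start of each gene, to show where SRF could bind near the start of a member. The box is CC, a run of A or T, and GG, which reads the same on both strands. Of the 41 members 34 had a promoter window in RefSeq (GRCm38.p6), and 7 of these 34 held a box, against 439 of 27025 genes, or 1.62%, in the genome. The members were chosen by name, with SRF targets among them, so this share is no test of a link to SRF. Only exact matches within the 250 bases were searched, so a gene without a match may still hold an SRF site. These are the windows around the boxes, 5′ to 3′ on the gene's strand, with the boxes in capitals. They lie at chr8:123894794-123894893 (Acta1, minus strand), chr11:120348531-120348630 (Actg1, minus), chr10:79988499-79988598 (Cnn2, plus), chr10:128493010-128493104 (Myl6, minus), chr2:156775258-156775357 (Myl9, plus), chr17:46556170-46556289 (Srf, minus) and chr14:20929148-20929225 (Vcl, plus).
Acta1: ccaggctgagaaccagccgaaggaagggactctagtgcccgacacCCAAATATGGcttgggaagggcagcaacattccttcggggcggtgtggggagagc
Actg1: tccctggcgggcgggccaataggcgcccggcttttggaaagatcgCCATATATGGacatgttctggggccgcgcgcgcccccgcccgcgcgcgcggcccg
Cnn2: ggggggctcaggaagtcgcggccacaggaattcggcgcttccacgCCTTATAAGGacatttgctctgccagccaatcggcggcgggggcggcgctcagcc
Myl6: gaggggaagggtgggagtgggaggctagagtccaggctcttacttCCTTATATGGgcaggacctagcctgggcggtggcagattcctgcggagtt
Myl9: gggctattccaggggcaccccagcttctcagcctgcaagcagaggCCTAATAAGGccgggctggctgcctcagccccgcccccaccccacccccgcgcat
Srf: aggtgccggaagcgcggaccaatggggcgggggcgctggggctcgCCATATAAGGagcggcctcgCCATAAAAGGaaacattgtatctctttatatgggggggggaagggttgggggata
Vcl: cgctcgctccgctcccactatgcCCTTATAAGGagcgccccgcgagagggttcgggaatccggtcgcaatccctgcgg
Counted from the start site to the first base of the box, the boxes began 73 bases upstream in Acta1, 90 in Actg1, 56 in Cnn2, 50 in Myl6, 161 in Myl9 and 227 in Vcl. Srf itself carried 2 boxes, which began 82 and 62 bases upstream. The 7 genes did not move together in the results that follow. Between media 4 were lower in 2i than in FBS (Acta1, Actg1, Cnn2 and Myl9), where 67.5% of the members and 35.3% of all genes tested were. Myl6 was higher, and Srf and Vcl did not pass. In the knockout Cnn2 and Myl9 were higher, as were 24% of all genes tested, and the others did not pass. No window was found for Actb, Tagln, Ccn2, Lgals1, Anxa3, Ier2 and S100a10.

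Levels are FPKM, the fragments counted on a transcript after scaling to its length and to the size of the library, so they can be set side by side between genes. How many reads each library held is unknown. Summed over genes, FPKM came to 347772 to 358340 per library, and 11542 to 11869 genes reached 1 FPKM in a library. Differences were tested with limma on log2(FPKM + 1) and called at a Benjamini-Hochberg adjusted p under 0.05 over all 12329 genes. Each difference is given on that log2 scale with its standard error. A positive value means higher in the knockout, or, between media, higher in 2i. This scale understates the change of genes near 1 FPKM. Both comparisons use the same 4 wild-type libraries in 2i, so their values are set side by side and no overlap between them is tested. Fewer cells of a type and less RNA per cell cannot be told apart in these bulk samples. Reads of Actb, Actg1, Cfl1, Pfn1, Tagln2, Myl6 and S100a11 may be shared with close copies elsewhere in the genome, and how they were divided is not given in the sources used here.

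Against wild-type cells in 2i, more members were higher than lower in the knockout. Of the 40 members 19 were higher (47.5%, against 24% of all genes tested), 2 were lower (5%, against 21.4%) and 19 did not pass, so 21 were called where 45.3% of all genes were. The median log2 difference was 0.23 over the members and 0.01 over all genes. In 11 of the 40 members all 4 knockout libraries lay above all 4 wild-type libraries in 2i, a share close to the 23.7% of all genes. In 3 of the 40 they lay below, which held for 20.4% of all genes. The largest positive differences were those of Anxa3, Vim, Acta2, Lgals1 and Tagln. The members that were lower were Tagln2 and Cnn3. Markers of fibroblasts moved with this comparison: 18 of 22 were higher in the knockout (81.8%, against 24% of all genes tested). With their mean level as a covariate 1 member was higher and 1 lower, and calls over all genes fell from 5589 to 1972. The mean log2 marker levels of knockout and wild type in 2i did not overlap, so marker level and genotype cannot be told apart in that fit.

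Most members were lower in wild-type cells in 2i than in wild-type cells in FBS. Of the 40 members 27 were lower (67.5%, against 35.3% of all genes tested), 5 were higher (12.5%, against 37.1%) and 8 did not pass, so 32 were called where 72.4% of all genes were. Acta1 and Cnn1, among the 27, met the filter of 1 FPKM in 4 or more libraries only through FBS, where they are high. The median log2 difference was -0.76 over the members and 0.01 over all genes. In 25 of the 40 members all 4 libraries in 2i lay below all 4 in FBS, against 30.5% of all genes, and in 5 they lay above, against 32%. The 5 higher in 2i were Actn1, Cnn3, Myl6, Ccn1 and Ccn2. Those that did not pass were Actb, Vcl, Tln1, Tagln2, Srf, Fos, Ier2 and Anxa1.

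**Figure D1:**
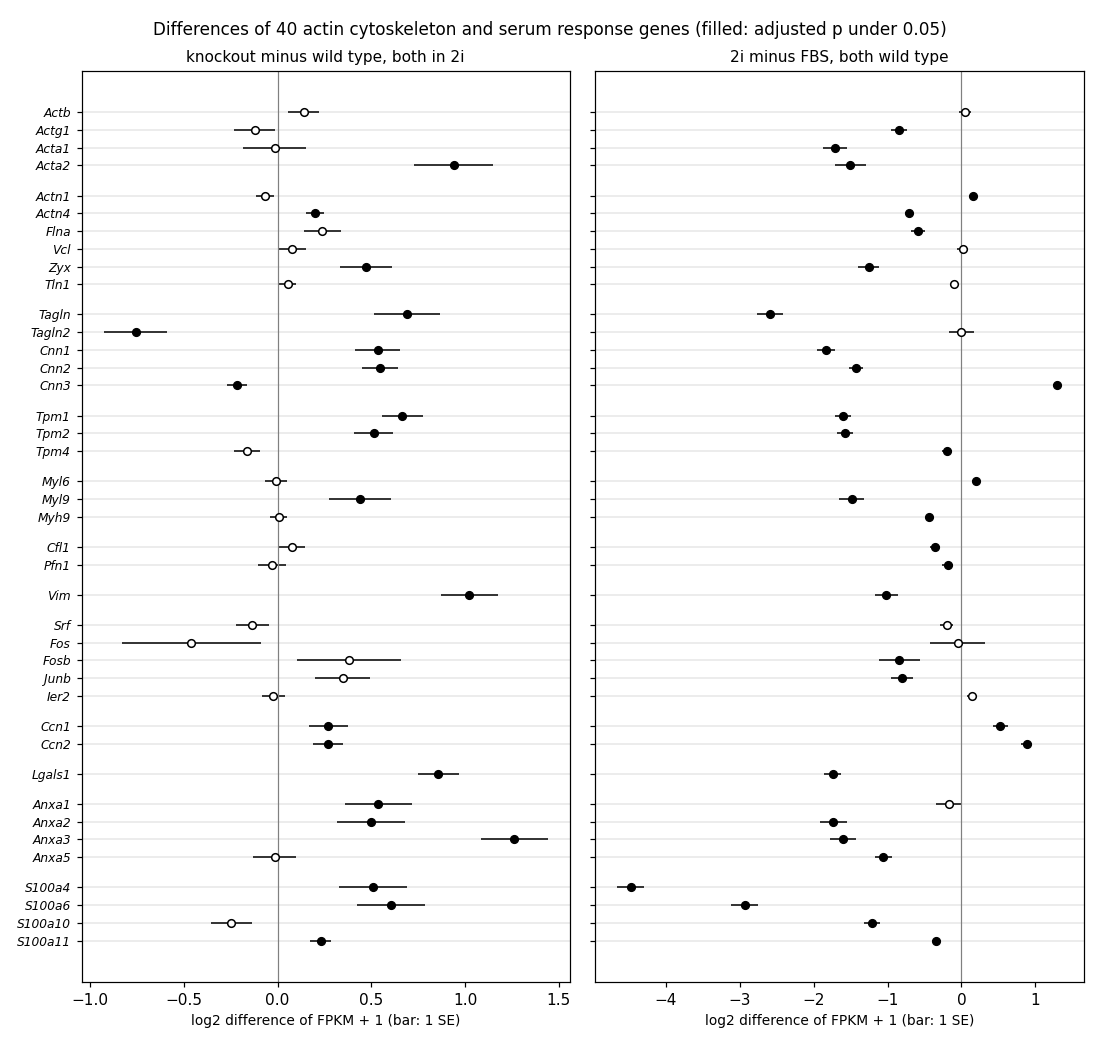
Log2 differences of FPKM + 1 of the 40 members with a value, ordered by role, for knockout minus wild type in 2i (left) and 2i minus FBS in wild type (right); points are limma estimates, bars are 1 SE and filled points have an adjusted p under 0.05. On the left 19 filled points lie right of 0 and 2 left of it; on the right 5 lie right of 0 and 27 left, with S100a4 at -4.47.

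The actins did not move as a block. The smooth muscle actin gene Acta2 was higher in the knockout, and the cytoplasmic Actg1 and the muscle actins Acta1 and Acta2 were lower in 2i than in FBS. Actb, the cytoplasmic beta-actin and the highest-expressed member, did not pass in either comparison. Actb (NM_007393, chr5:143664795-143668403) stood at 1215, 1091, 1168 and 1145 FPKM in knockout cells and at 1001, 939, 1172 and 1094 FPKM in wild-type cells in 2i. Actb in wild-type cells in FBS stood at 1089, 969, 885 and 1128 FPKM. All 12 libraries lay close together, and the difference was 0.14 ± 0.08 (adjusted p = 0.187) for the knockout and 0.05 ± 0.08 (adjusted p = 0.615) for 2i against FBS. Actg1 (NM_009609, chr11:120207004-120209798), which codes for cytoplasmic gamma-actin, stood at 478, 449, 482 and 470.0 FPKM in knockout cells and at 455, 413, 654 and 557 FPKM in wild-type cells in 2i. Actg1 in wild-type cells in FBS stood at 956, 865, 892 and 976 FPKM. The FBS libraries lay above all others, with a difference of -0.85 ± 0.11 (adjusted p = 1.66e-05) for 2i against FBS, whereas the knockout overlapped wild type in 2i at -0.12 ± 0.11 (adjusted p = 0.39).

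Acta2 (NM_007392, chr19:34314826-34329863), the actin of smooth muscle and of myofibroblasts, stood at 5.43, 6.15, 7.28 and 9.02 FPKM in knockout cells and at 2.56, 2.07, 3.75 and 4.42 FPKM in wild-type cells in 2i. Acta2 in wild-type cells in FBS stood at 15.8, 9.90, 9.87 and 8.13 FPKM. The lowest knockout library was above the highest wild-type library in 2i, and the knockout mean was 2.18 times that of wild type in 2i. The difference was 0.94 ± 0.21 (adjusted p = 0.0032) for the knockout and -1.50 ± 0.21 (adjusted p = 3.03e-05) for 2i against FBS. Acta1 (chr8:126415658-126418675), the skeletal muscle actin, was near 0 in 2i whatever the genotype, at 0.169, 0.187, 0.248 and 0.243 FPKM in knockout cells and at 0.177, 0.248, 0.231 and 0.24 FPKM in wild-type cells in 2i. Acta1 in wild-type cells in FBS stood at 4.998, 2.59, 3.21 and 1.82 FPKM. Its difference between 2i and FBS was -1.71 ± 0.17 (adjusted p = 1.18e-06), and that between knockout and wild type in 2i was -0.01 ± 0.17 (adjusted p = 0.949). Acta1 met the filter of 1 FPKM in 4 libraries only through the FBS libraries, where it is high. The p-value between media is thus no independent support.

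Among the genes for filament crosslinkers and adhesion plaque proteins, which bundle filaments and tie them to integrins, the differences were small in the knockout. Actn4 and Zyx passed, both higher, and Actn1, Flna, Vcl and Tln1 did not. Between media, Actn4, Flna and Zyx were lower in 2i than in FBS and Actn1 was slightly higher. Actn4 (NM_021895, chr7:29678273-29747299), an alpha-actinin of non-muscle cells, stood at 134, 136, 132 and 133 FPKM in knockout cells and at 114, 111, 126 and 115 FPKM in wild-type cells in 2i. Actn4 in wild-type cells in FBS stood at 204, 191, 176 and 195 FPKM. The groups were apart in both comparisons, at 0.20 ± 0.05 (adjusted p = 0.00506) for the knockout and -0.71 ± 0.05 (adjusted p = 4.61e-08) for 2i against FBS. Actn1, its close relative, ran the other way between media at 0.15 ± 0.05 (adjusted p = 0.0122), with 64.2 to 76.4 FPKM over all 12 libraries.

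Flna (NM_010227, chrX:71468800-71491873), the gene for filamin A, a crosslinker of filaments into networks, stood at 47.9, 48.2, 39.2 and 41.1 FPKM in knockout cells and at 36.1, 32.4, 40.8 and 39.5 FPKM in wild-type cells in 2i. Flna in wild-type cells in FBS stood at 65.3, 58.5, 49.6 and 52.9 FPKM. Its knockout and wild-type libraries in 2i overlapped, at 0.24 ± 0.10 (adjusted p = 0.062), and 2i was below FBS at -0.59 ± 0.10 (adjusted p = 0.000123). Without knockout replicate 3, wild-type 2i replicate 3 or FBS replicate 1, Flna passed in the knockout, with adjusted p-values of 0.038 to 0.0462. Zyx (NM_011777, chr6:42299827-42308394), which codes for zyxin, a protein of focal adhesions and stress fibres, stood at 13.5, 17.2, 13.2 and 15.5 FPKM in knockout cells and at 9.27, 11.4, 8.15 and 13.3 FPKM in wild-type cells in 2i. Zyx in wild-type cells in FBS stood at 30.9, 26.6, 21.6 and 26.2 FPKM. The knockout and wild type in 2i overlapped but differed on average, at 0.47 ± 0.14 (adjusted p = 0.0147), and 2i was below FBS, at -1.26 ± 0.14 (adjusted p = 3.5e-06).

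Zyx lies on chromosome 6, whose 579 tested genes had a median offset from their own means over the libraries of -0.082, 0.021, -0.083 and -0.085 in knockout replicates 1 to 4 and 0.046, 0.185, -0.11 and 0.211 in wild-type 2i replicates 1 to 4, on the log2 scale. The part of these offsets in the values of Zyx was not tested. Vcl, which codes for vinculin, and Tln1, which codes for talin, are the other plaque genes. Vcl did not pass in either comparison, at 0.08 ± 0.07 (adjusted p = 0.43) in the knockout and 0.02 ± 0.07 (adjusted p = 0.82) between media. Tln1 stood between 17.6 and 21.1 FPKM in all libraries and at -0.10 ± 0.05 (adjusted p = 0.0728) for 2i against FBS, where it passed without FBS replicate 4 (adjusted p = 0.0444).

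The calponins and transgelins, small proteins that bind along actin filaments, all passed in the knockout, 3 higher and 2 lower. Of all genes tested 24% were higher and 21.4% lower there. Tagln, Cnn1 and Cnn2 were higher in the knockout and lower in 2i than in FBS. Cnn3 took the opposite direction in both, and Tagln2 was lower in the knockout with no called difference between media. Tagln (NM_011526, chr9:45737711-45744141), also called SM22-alpha and a classical SRF target of smooth muscle, stood at 6.81, 8.13, 8.25 and 10.4 FPKM in knockout cells and at 3.63, 4.37, 5.21 and 6.23 FPKM in wild-type cells in 2i. Tagln in wild-type cells in FBS stood at 48.8, 28.6, 30.6 and 30.8 FPKM. All 3 groups were apart, and the means in the knockout and in wild-type cells in 2i were 8.41 ± 1.51 and 4.86 ± 1.12 FPKM, against 34.7 ± 9.48 FPKM in FBS. The differences were 0.69 ± 0.18 (adjusted p = 0.00682) for the knockout and -2.59 ± 0.18 (adjusted p = 4.47e-08) for 2i against FBS, where 1 library, FBS replicate 1, stood far above the rest of its group.

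Cnn1 (NM_009922, chr9:21903697-21913665), the calponin of smooth muscle, was low throughout, at 0.971, 0.945, 1.08 and 1.02 FPKM in knockout cells and at 0.277, 0.195, 0.457 and 0.649 FPKM in wild-type cells in 2i. Cnn1 in wild-type cells in FBS stood at 4.64, 2.92, 4.40 and 3.97 FPKM. The knockout libraries gathered near 1 FPKM, above every wild-type library in 2i and below every FBS library. The log2 differences were 0.53 ± 0.12 (adjusted p = 0.00322) in the knockout and -1.84 ± 0.12 (adjusted p = 3.23e-08) between media. In 2i only knockout replicates 3 and 4 reached 1 FPKM, so Cnn1 met the filter only through the FBS libraries, where it is high. The p-value of Cnn1 between media is thus no independent support. Cnn2 (NM_007725, chr10:79451345-79458145), the calponin of non-muscle cells, was expressed at a higher level, at 37.9, 41.9, 31.1 and 34.4 FPKM in knockout cells and at 24.9, 27.98, 21.3 and 23.7 FPKM in wild-type cells in 2i. Cnn2 in wild-type cells in FBS stood at 75.5, 65.5, 65.2 and 62.6 FPKM. It ran at 0.55 ± 0.10 (adjusted p = 0.000656) in the knockout and -1.42 ± 0.10 (adjusted p = 4.23e-08) for 2i against FBS, and no group overlapped another.

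Cnn3 (NM_028044, chr3:121129459-121161123), the acidic calponin, was the most abundant of its family, at 329.5, 333, 343 and 339.5 FPKM in knockout cells and at 398, 378, 426 and 366 FPKM in wild-type cells in 2i. Cnn3 in wild-type cells in FBS stood at 155, 150.4, 173 and 156 FPKM. Wild-type cells in 2i had 2.47 times the mean of FBS, a difference of 1.30 ± 0.05 (adjusted p = 6.13e-10), and the knockout was below wild type in 2i by a smaller step, at -0.22 ± 0.05 (adjusted p = 0.00545). The knockout call was lost under quantile normalization (adjusted p = 0.0569). Tagln2 (NM_178598, chr1:174430377-174437506), a transgelin of non-muscle cells, stood at 56.8, 63.6, 49.5 and 60.6 FPKM in knockout cells and at 108, 134, 66.3 and 94.5 FPKM in wild-type cells in 2i. Tagln2 in wild-type cells in FBS stood at 105, 92.1, 112 and 84.6 FPKM. The knockout libraries lay below both wild-type groups, at -0.76 ± 0.17 (adjusted p = 0.00322) against wild type in 2i. Wild type in 2i spanned a range that held all 4 FBS values, and the medium difference was -0.0032 ± 0.17 (adjusted p = 0.987).

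**Figure D2:**
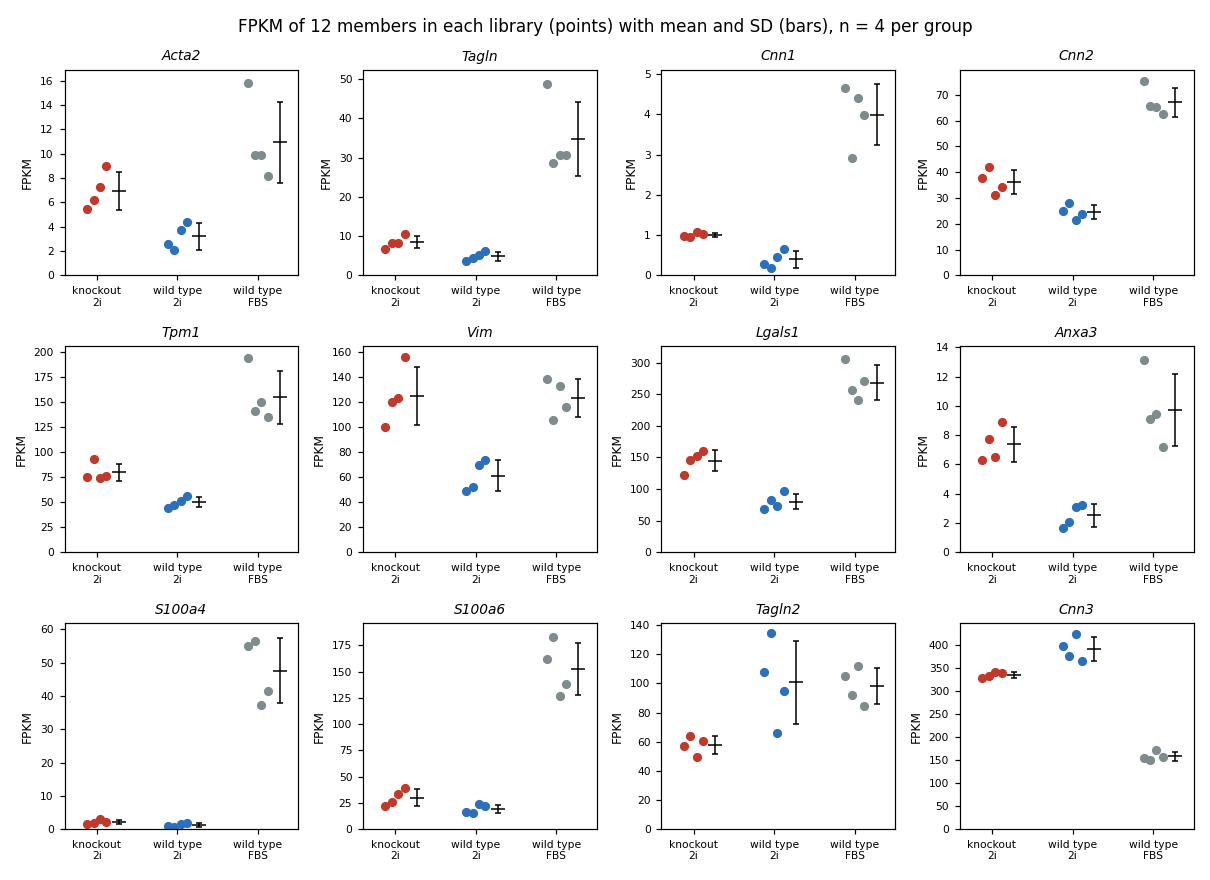
FPKM of 12 members in each library (points, replicates 1 to 4 from left to right) with the mean and SD of the group (bars, n = 4), for knockout in 2i, wild type in 2i and wild type in FBS. In Acta2, Tagln, Cnn1, Cnn2, Tpm1, Lgals1 and Anxa3 the knockout means lie between those of the wild-type groups, Vim is at about the same level in the knockout and in FBS (124.8 and 123.3 FPKM), and Cnn3 is lowest in FBS.

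Tropomyosins run along the groove of the filament and set which other proteins can bind. Tpm1 and Tpm2 were higher in the knockout and lower in 2i than in FBS, and Tpm4 was lower in 2i than in FBS by a small step. Tpm1 (chr9:66870400-66897020, 10 transcript entries summed) stood at 75.4, 92.5, 73.9 and 76.5 FPKM in knockout cells and at 44.5, 47.1, 51.3 and 56.2 FPKM in wild-type cells in 2i. Tpm1 in wild-type cells in FBS stood at 193, 141, 149 and 135 FPKM. The groups were apart in both comparisons, at 0.67 ± 0.11 (adjusted p = 0.000455) in the knockout and -1.61 ± 0.11 (adjusted p = 5.15e-08) for 2i against FBS. Tpm2 (chr4:43526598-43536426, 3 entries) stood at 8.84, 10.8, 9.02 and 11.1 FPKM in knockout cells and at 6.62, 7.36, 6.74 and 5.90 FPKM in wild-type cells in 2i. Tpm2 in wild-type cells in FBS stood at 25.7, 19.9, 23.7 and 18.6 FPKM. It moved by 0.51 ± 0.10 (adjusted p = 0.00178) in the knockout and -1.58 ± 0.10 (adjusted p = 3.67e-08) between media, again with no overlap. Tpm4 averaged 43.6 ± 2.03 FPKM in knockout cells, 48.9 ± 0.937 FPKM in wild-type cells in 2i and 56.3 ± 6.69 FPKM in wild-type cells in FBS (SD, n = 4 each), a difference of -0.16 ± 0.07 (adjusted p = 0.0726) for the knockout and -0.19 ± 0.07 (adjusted p = 0.0228) for the media. In the knockout it passed without FBS replicate 1 or FBS replicate 4 (adjusted p = 0.0253 and 0.028) and under median-ratio scaling (adjusted p = 0.0417). It also passed with the 8 libraries of the comparison alone (adjusted p = 0.00986). Its call between media was lost without FBS replicate 1 (adjusted p = 0.0673).

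Tpm1 makes long and short tropomyosins from separate promoters of the same gene. On mm9 its entries, on the minus strand of chromosome 9, began either at base 66897020, the upstream start, with 6 entries, or at base 66891678, the internal start, with 4 entries. This division was made after the values of Tpm1 were seen and is given without a test. The split of reads between entries is an estimate by Cufflinks. The upstream entries summed to 56.2, 73.2, 52.0 and 55.7 FPKM in knockout cells, to 25.9, 22.6, 31.2 and 35.2 FPKM in wild-type cells in 2i and to 161, 113, 119.8 and 105.5 FPKM in wild-type cells in FBS. The internal entries summed to 19.2, 19.4, 21.9 and 20.8 FPKM in knockout cells, to 18.7, 24.5, 20.1 and 21.0 FPKM in wild-type cells in 2i and to 31.9, 28.2, 29.6 and 29.2 FPKM in wild-type cells in FBS. The upstream sums of the 3 groups did not overlap. The internal sums of knockout and wild type in 2i did, and those of FBS lay above both. The upstream start thus held 74.2% ± 3.67 of the Tpm1 sum in knockout cells, 57.4% ± 6.54 in wild-type cells in 2i and 80.5% ± 2.14 in wild-type cells in FBS (SD, n = 4 each). Of the 6 upstream entries NM_001164250 alone was not higher on average in the knockout, at 4.37 ± 6.24 FPKM against 4.85 ± 2.71 FPKM in wild-type cells in 2i. In FBS it had the highest mean of the upstream entries, at 52.4 ± 10.75 FPKM.

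**Figure D3:**
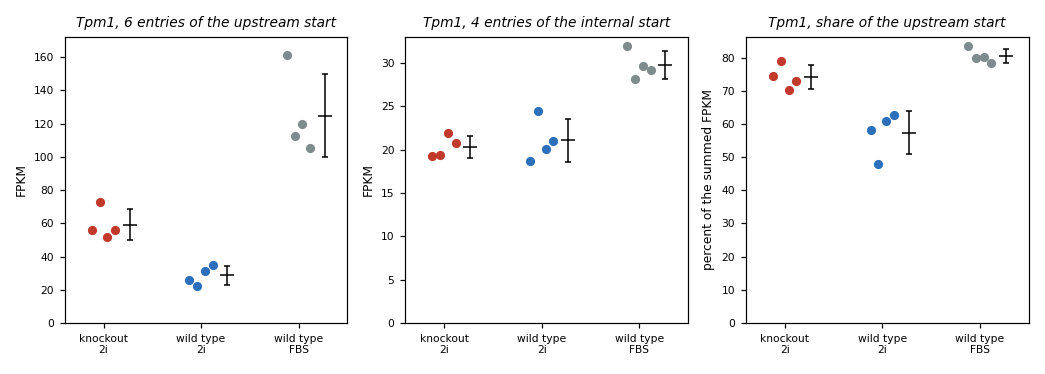
Summed FPKM of the Tpm1 entries that begin at the upstream start (left) and the internal start (middle), and the share of the upstream start in percent (right), in each library (points) with mean and SD (bars, n = 4 per group). The upstream sums separate the groups, with means of 59.3 FPKM in the knockout, 28.7 FPKM in wild type in 2i and 124.8 FPKM in FBS. The internal sums stay between 18.7 and 24.5 FPKM in all 8 libraries in 2i.

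Non-muscle myosin II, which pulls on actin filaments, is made of heavy and light chains. Myl9 was the only chain of the 3 called in the knockout, where it was higher and where 45.3% of all genes tested were called. Between media, too, Myl9 had the largest difference of the 3. Myl9 (NM_172118, chr2:156601200-156607393), a regulatory light chain abundant in smooth muscle, stood at 3.43, 4.30, 5.08 and 4.02 FPKM in knockout cells and at 2.13, 2.22, 3.36 and 3.83 FPKM in wild-type cells in 2i. Myl9 in wild-type cells in FBS stood at 12.9, 8.68, 7.80 and 9.97 FPKM. The knockout overlapped wild type in 2i, with a difference of 0.44 ± 0.17 (adjusted p = 0.0468), and 2i was below FBS, at -1.48 ± 0.17 (adjusted p = 3.98e-06). The knockout call was lost when any of knockout replicates 2, 3 and 4, wild-type 2i replicates 1 and 2, or FBS replicates 2 and 4 was left out (adjusted p = 0.0544 to 0.134). It was also lost without the filter on low genes (adjusted p = 0.113) and with only the highest entry of each gene (adjusted p = 0.0512).

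Myh9 (NM_022410, chr15:77591019-77672545), the heavy chain of non-muscle myosin IIA, stood at 68.3, 67.8, 65.7 and 69.8 FPKM in knockout cells and at 66.98, 72.1, 63.5 and 68.3 FPKM in wild-type cells in 2i. Myh9 in wild-type cells in FBS stood at 94.97, 94.2, 91.2 and 86.6 FPKM. The 8 libraries in 2i overlapped, at 0.01 ± 0.04 (adjusted p = 0.929) for the knockout, and all lay below FBS, at -0.43 ± 0.04 (adjusted p = 2e-06). Myl6, the essential light chain, was slightly higher in 2i than in FBS, at 0.20 ± 0.06 (adjusted p = 0.0093), with 57.2 ± 2.82 FPKM in knockout cells, 57.6 ± 3.67 FPKM in wild-type cells in 2i and 50.2 ± 3.33 FPKM in wild-type cells in FBS (SD, n = 4 each). Cfl1 and Pfn1, whose products cofilin and profilin take filaments apart and feed subunits to growing ends, are listed here as the turnover genes. Neither passed in the knockout, at 0.08 ± 0.07 (adjusted p = 0.39) for Cfl1 and -0.03 ± 0.07 (adjusted p = 0.759) for Pfn1. Pfn1 (NM_011072, chr11:70465349-70468152) stood at 578, 557, 578 and 581 FPKM in knockout cells and at 562, 548, 635 and 602 FPKM in wild-type cells in 2i. Pfn1 in wild-type cells in FBS stood at 696, 659, 571 and 750.1 FPKM. The FBS libraries of Pfn1 overlapped the other groups, and its call between media, -0.18 ± 0.07 (adjusted p = 0.0362), was lost without any of wild-type 2i replicates 1 and 2 or FBS replicates 1, 2 and 4 (adjusted p = 0.0575 to 0.117). Cfl1 was lower in 2i than in FBS by a larger step, -0.36 ± 0.07 (adjusted p = 0.000392), and it passed in the knockout under quantile normalization alone (adjusted p = 0.02).

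Vimentin, galectin-1 and several annexins and S100 proteins are often abundant in spread, adherent cells, and these genes held several of the largest differences of the 41. Vim (NM_011701, chr2:13495938-13504453), which codes for the intermediate filament of mesenchymal cells, stood at 100.1, 120.1, 123 and 156 FPKM in knockout cells and at 49.05, 51.9, 69.5 and 73.9 FPKM in wild-type cells in 2i. Vim in wild-type cells in FBS stood at 138, 106, 133 and 116 FPKM. Every knockout library was above every wild-type library in 2i, and the knockout and FBS ranges overlapped. The difference was 1.02 ± 0.15 (adjusted p = 0.000194) for the knockout, whose mean was 2.04 times that of wild type in 2i, and -1.01 ± 0.15 (adjusted p = 5.07e-05) for 2i against FBS. Lgals1 (NM_008495, chr15:78757155-78760895), which codes for galectin-1, a secreted lectin, stood at 122, 146, 152 and 160.3 FPKM in knockout cells and at 67.9, 82.1, 73.5 and 96.1 FPKM in wild-type cells in 2i. Lgals1 in wild-type cells in FBS stood at 306, 256, 240.4 and 271 FPKM. Its 3 groups were apart, with differences of 0.86 ± 0.11 (adjusted p = 6.98e-05) in the knockout and -1.74 ± 0.11 (adjusted p = 2.54e-08) between media.

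Annexins bind membrane lipids in the presence of calcium. Of the 4 members, Anxa1, Anxa2 and Anxa3 were higher in the knockout, where 24% of all genes tested were. Lower in 2i than in FBS were Anxa2, Anxa3 and Anxa5, where 35.3% of all genes were. Anxa3 (NM_013470, chr5:97222404-97274987) stood at 6.32, 7.73, 6.54 and 8.87 FPKM in knockout cells and at 1.68, 2.06, 3.10 and 3.26 FPKM in wild-type cells in 2i. Anxa3 in wild-type cells in FBS stood at 13.1, 9.08, 9.42 and 7.22 FPKM. Its knockout libraries lay well above wild type in 2i and in part within the FBS range, and its difference of 1.26 ± 0.18 (adjusted p = 0.000134) was the largest of all members in the knockout. Between media it was -1.60 ± 0.18 (adjusted p = 3.6e-06). Anxa2 (NM_007585, chr9:69301490-69339592), which pairs with S100a10 at the plasma membrane, stood at 23.2, 26.5, 27.8 and 36.5 FPKM in knockout cells and at 15.4, 20.4, 16.7 and 28.4 FPKM in wild-type cells in 2i. Anxa2 in wild-type cells in FBS stood at 74.1, 59.99, 81.9 and 57.4 FPKM. The knockout overlapped wild type in 2i through wild-type replicate 4, with a difference of 0.50 ± 0.18 (adjusted p = 0.0411), and 2i was below FBS, at -1.73 ± 0.18 (adjusted p = 2.25e-06).

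Anxa1 (NM_010730, chr19:20447924-20465161), known for its part in ending inflammation, stood at 19.1, 26.1, 27.4 and 35.96 FPKM in knockout cells and at 15.96, 18.9, 17.2 and 20.01 FPKM in wild-type cells in 2i. Anxa1 in wild-type cells in FBS stood at 25.1, 20.6, 22.3 and 14.4 FPKM. The knockout spread widely and its lowest library lay within the wild-type range, at 0.54 ± 0.18 (adjusted p = 0.0262), and the media differed by -0.16 ± 0.18 (adjusted p = 0.423). Anxa5 (NM_009673, chr3:36347846-36374809), which binds phosphatidylserine, stood at 11.3, 13.6, 13.9 and 16.4 FPKM in knockout cells and at 13.4, 15.2, 10.97 and 16.3 FPKM in wild-type cells in 2i. Anxa5 in wild-type cells in FBS stood at 32.1, 29.6, 29.1 and 28.7 FPKM. Knockout and wild type in 2i overlapped fully, at -0.02 ± 0.11 (adjusted p = 0.921), and both lay below FBS, at -1.06 ± 0.11 (adjusted p = 2.97e-06) for the wild type. The knockout call of Anxa1 was lost without knockout replicate 3, knockout replicate 4 or wild-type 2i replicate 1 (adjusted p = 0.0572 to 0.0787). That of Anxa2 was lost without any of knockout replicates 2, 3 and 4, wild-type 2i replicates 1, 2 and 3, or FBS replicate 1 (adjusted p = 0.0506 to 0.121), and it was lost with the 8 libraries of the comparison alone (adjusted p = 0.0589). Both were lost without the filter on low genes (adjusted p = 0.0763 for Anxa1 and 0.108 for Anxa2).

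S100 proteins are small calcium-binding proteins, several of which bind annexins or myosin. All 4 members were lower in 2i than in FBS, where 35.3% of all genes tested were, and 3 were higher in the knockout, where 24% were. S100a4 (NM_011311, chr3:90407692-90409967), a binding partner of myosin IIA, stood at 1.54, 1.77, 2.90 and 2.21 FPKM in knockout cells and at 0.836, 0.729, 1.52 and 1.70 FPKM in wild-type cells in 2i. S100a4 in wild-type cells in FBS stood at 55.1, 56.6, 37.3 and 41.5 FPKM. The mean of wild-type cells in 2i was 0.0251 times that of FBS, the largest difference between media of the 40 genes at -4.47 ± 0.18 (adjusted p = 5.45e-10). In the knockout S100a4 was higher by 0.51 ± 0.18 (adjusted p = 0.0372), with overlapping groups. S100a6 (NM_011313, chr3:90416816-90418336), or calcyclin, stood at 22.2, 25.4, 33.2 and 39.2 FPKM in knockout cells and at 16.4, 15.2, 23.4 and 21.9 FPKM in wild-type cells in 2i. S100a6 in wild-type cells in FBS stood at 162, 183, 126 and 138 FPKM. FBS lay far above all libraries in 2i, at -2.93 ± 0.18 (adjusted p = 2e-08), and the knockout was above wild type in 2i by 0.61 ± 0.18 (adjusted p = 0.0162) with 1 of its libraries inside the wild-type range.

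S100a10 (NM_009112, chr3:93359039-93368567), the partner of Anxa2, stood at 34.6, 39.3, 39.5 and 49.02 FPKM in knockout cells and at 45.2, 43.1, 47.5 and 57.01 FPKM in wild-type cells in 2i. S100a10 in wild-type cells in FBS stood at 114, 127, 102 and 106 FPKM. It did not pass in the knockout, at -0.25 ± 0.11 (adjusted p = 0.0799), the sign opposite to that of Anxa2, and was lower in 2i than in FBS, at -1.21 ± 0.11 (adjusted p = 5.11e-07). S100a11 (NM_016740, chr3:93324418-93330210), the most abundant of the 4, stood at 102, 95.1, 106 and 114 FPKM in knockout cells and at 93.6, 88.4, 83.9 and 88.9 FPKM in wild-type cells in 2i. S100a11 in wild-type cells in FBS stood at 106, 116, 112 and 114 FPKM. Its knockout libraries were all above wild type in 2i, at 0.23 ± 0.06 (adjusted p = 0.00488), and its medium difference was small at -0.34 ± 0.06 (adjusted p = 0.000112). The knockout call of S100a4 was lost without knockout replicate 3 or 4 or wild-type 2i replicate 1 or 2 (adjusted p = 0.0777 to 0.112), that of S100a6 without knockout replicate 4 (adjusted p = 0.0501), and S100a10 passed, as lower, without knockout replicate 4 (adjusted p = 0.0169). Without the filter on low genes S100a4 and S100a6 did not pass in the knockout (adjusted p = 0.0965 for S100a4 and 0.0537 for S100a6).

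The annexin and S100 relatives outside the 41 genes went mostly the other way in the knockout. Of 9 tested, 6 were lower (66.7%, against 21.4% of all genes tested) and 2 higher (22.2%, against 24%) in the knockout. Anxa4, among the 6, lies on chromosome 6, and the part of its offsets, given with Zyx, was not tested. Between media 3 were higher (33.3%, against 37.1%) and 1 lower (11.1%, against 35.3%) in 2i. S100a1, a calcium sensor known from heart muscle, averaged 6.11 ± 0.995 FPKM in knockout cells, 38.2 ± 6.63 FPKM in wild-type cells in 2i and 7.38 ± 2.66 FPKM in wild-type cells in FBS (SD, n = 4 each). Wild-type cells in 2i were thus the high group, with differences of -2.46 ± 0.18 (adjusted p = 9.66e-07) for the knockout and 2.26 ± 0.18 (adjusted p = 2.22e-07) for 2i against FBS. S100a13 followed the same order, at -1.79 ± 0.12 (adjusted p = 4e-07) in the knockout and 1.75 ± 0.12 (adjusted p = 4.86e-08) between media, with means of 18.8 ± 2.90 FPKM in knockout cells, 66.9 ± 5.08 FPKM in wild-type cells in 2i and 19.3 ± 3.28 FPKM in wild-type cells in FBS (SD, n = 4 each). Lgals3, the galectin-3 gene listed with these relatives, was lower in the knockout at -0.67 ± 0.17 (adjusted p = 0.0079) and lower in 2i than in FBS at -1.29 ± 0.17 (adjusted p = 2.12e-05), so it did not follow Lgals1 in the knockout. Anxa8, the only gene tested in this list that passed in neither comparison, stood at 0.23 ± 0.14 (adjusted p = 0.201) in the knockout and -0.09 ± 0.14 (adjusted p = 0.579) between media.

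Srf and the immediate-early members did not pass in the knockout, 0 of 5 by limma, the only tool used, and 1 of 5 (Junb, higher) at an unadjusted p under 0.05. Of all genes tested 45.3% passed there at the adjusted threshold. Between media Fosb and Junb were lower in 2i than in FBS, and Srf, Fos and Ier2 did not pass. Srf (NM_020493, chr17:46683788-46693111) stood at 21.2, 20.4, 21.4 and 20.3 FPKM in knockout cells and at 22.1, 21.3, 28.3 and 20.7 FPKM in wild-type cells in 2i. Srf in wild-type cells in FBS stood at 28.2, 25.7, 23.9 and 28.5 FPKM. Its groups overlapped, at -0.13 ± 0.09 (adjusted p = 0.221) for the knockout and -0.20 ± 0.09 (adjusted p = 0.0501) for 2i against FBS, just short of the threshold. Without wild-type 2i replicate 3 or FBS replicate 3 the second difference passed (adjusted p = 0.00068 and 0.025). Ier2 (NM_010499, chr8:87185230-87186751), a small nuclear protein gene induced by serum, was the most abundant of the 5, at 123, 124, 118 and 126 FPKM in knockout cells and at 128, 142, 115 and 115 FPKM in wild-type cells in 2i. Ier2 in wild-type cells in FBS stood at 118, 114, 107 and 115 FPKM. Wild-type cells in 2i overlapped both the knockout and FBS, at -0.02 ± 0.06 (adjusted p = 0.794) for the knockout and 0.14 ± 0.06 (adjusted p = 0.0671) for the media. The difference between media passed, as higher in 2i, without wild-type 2i replicate 3 or 4 (adjusted p = 0.0231 to 0.0292).

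Fos (NM_010234, chr12:86814851-86818219), which codes for a subunit of the AP-1 transcription factor and in whose promoter the serum response element was described, stood at 46.3, 68.05, 37.3 and 62.6 FPKM in knockout cells and at 88.7, 156, 32.9 and 58.7 FPKM in wild-type cells in 2i. Fos in wild-type cells in FBS stood at 78.7, 89.5, 86.05 and 51.3 FPKM. Wild-type cells in 2i held both the highest and the lowest of the 12 libraries, and neither difference passed, at -0.46 ± 0.37 (adjusted p = 0.336) for the knockout and -0.05 ± 0.37 (adjusted p = 0.906) for the media. Without wild-type 2i replicate 3 Fos was lower in the knockout (adjusted p = 0.0401). Fosb (NM_008036, chr7:19888045-19895394), its close relative, stood at 22.3, 30.3, 20.5 and 25.6 FPKM in knockout cells and at 18.9, 31.8, 10.8 and 17.8 FPKM in wild-type cells in 2i. Fosb in wild-type cells in FBS stood at 37.98, 36.9, 45.2 and 21.0 FPKM. FBS was higher on average than wild type in 2i, with a difference of -0.84 ± 0.28 (adjusted p = 0.0148) for 2i against FBS, although FBS replicate 4 and wild-type 2i replicate 2 lay within the other group's range. In the knockout the difference was 0.38 ± 0.28 (adjusted p = 0.28). Junb (NM_008416, chr8:87500808-87502647), which codes for a partner of the Fos proteins in AP-1, stood at 24.99, 27.2, 28.5 and 38.2 FPKM in knockout cells and at 20.3, 28.4, 18.3 and 25.7 FPKM in wild-type cells in 2i. Junb in wild-type cells in FBS stood at 42.3, 46.4, 37.01 and 37.8 FPKM. All FBS libraries lay above wild type in 2i, at -0.81 ± 0.14 (adjusted p = 0.000244), and the knockout stood at 0.35 ± 0.14 (adjusted p = 0.0673). Junb passed in the knockout, as higher, without knockout replicate 1 or wild-type 2i replicate 2 (adjusted p = 0.047 and 0.0255) and under quantile normalization (adjusted p = 0.0467).

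Ccn1 and Ccn2, secreted matricellular proteins whose genes respond to serum through both SRF and YAP, were higher in the knockout and higher in 2i than in FBS, the opposite of most members between media. Ccn2 (NM_010217, chr10:24315248-24318488), also called CTGF, stood at 192, 196, 187 and 201 FPKM in knockout cells and at 157, 192, 143 and 155 FPKM in wild-type cells in 2i. Ccn2 in wild-type cells in FBS stood at 81.7, 93.1, 92.8 and 80.0 FPKM. FBS was below every library in 2i, at 0.88 ± 0.08 (adjusted p = 5.98e-07), and the knockout was above 3 of the 4 wild-type libraries in 2i, at 0.27 ± 0.08 (adjusted p = 0.0154). Ccn1 (NM_010516, chr3:145309935-145312949), also called CYR61, stood at 156, 156, 136 and 160.2 FPKM in knockout cells and at 122, 155, 104 and 126 FPKM in wild-type cells in 2i. Ccn1 in wild-type cells in FBS stood at 89.8, 90.4, 91.8 and 75.99 FPKM. It differed by 0.53 ± 0.10 (adjusted p = 0.00047) between media and by 0.27 ± 0.10 (adjusted p = 0.0473) in the knockout, whose libraries overlapped those of wild type in 2i. The knockout call of Ccn1 was lost in 9 of the 12 fits that left out 1 library, those without knockout replicates 1, 2 or 4, wild-type 2i replicates 1, 3 or 4, or FBS replicates 1, 2 or 3 (adjusted p = 0.0532 to 0.12), and without the filter on low genes (adjusted p = 0.113). It was also lost with the 8 libraries of the comparison alone (adjusted p = 0.0677) and with only the highest entry of each gene (adjusted p = 0.0511).

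Within wild-type cells in 2i the order of the libraries was shared by several of these genes. Fos, Fosb, Junb, Ier2, Ccn1 and Ccn2 were each highest in replicate 2 and lowest in replicate 3. Tagln2, Cnn2, Myl6 and Myh9 shared this order, and the other members did not. Of the 18 other immediate-early genes tested, 11 showed the same pattern (61.1%), against 2660 of all 12329 genes tested (21.6%). The pattern was also that of 5 of the 10 ESC markers (50%), 4 of the 9 annexin and S100 relatives (44.4%) and 6 of the 16 further MRTF and SRF targets (37.5%). It was that of 6 of 26 genes for filament nucleation, capping and turnover (23.1%) and 3 of 22 fibroblast markers (13.6%). In the list of RhoA to SRF signalling it was that of 2 of 20 genes (10%), and in that of YAP and TEAD targets of 0 of 10. Srf did not show it, being highest in replicate 3. Egr1, an immediate-early gene named here after its values were seen, stood at 31.4, 36.9, 40.2 and 48.1 FPKM in knockout cells and at 25.1, 32.1, 17.7 and 28.4 FPKM in wild-type cells in 2i. Egr1 in wild-type cells in FBS stood at 63.8, 56.9, 70.1 and 50.8 FPKM.

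**Figure D4:**
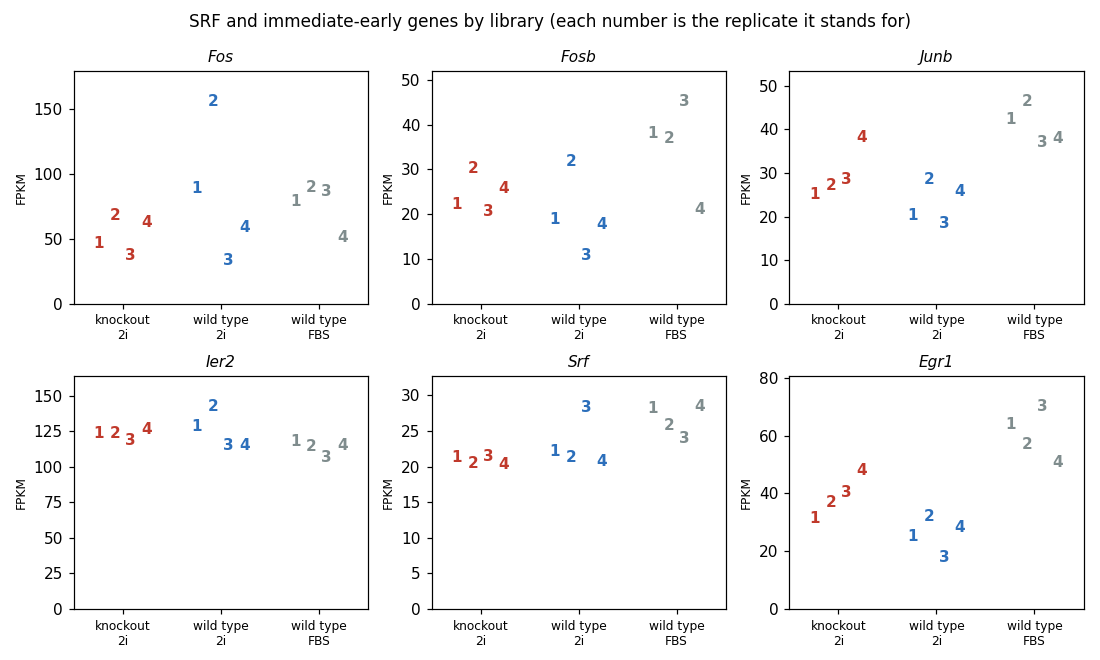
FPKM of Fos, Fosb, Junb, Ier2, Srf and Egr1 in each library, each number being the replicate it stands for, in knockout in 2i, wild type in 2i and wild type in FBS; the y axes start at 0. In wild type in 2i replicate 2 is highest and replicate 3 lowest for Fos (156 and 32.9 FPKM), Fosb, Junb, Ier2 and Egr1, and replicate 3 is highest for Srf (28.3 FPKM).

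Of the 18 other immediate-early genes tested, more were higher than lower in the knockout. There 10 were higher (55.6%, against 24% of all genes tested), 1 was lower (5.56%, against 21.4%) and 7 did not pass. Between media 4 were higher (22.2%, against 37.1%) and 9 lower (50%, against 35.3%) in 2i than in FBS. Klf6, a zinc finger factor gene, averaged 32.97 ± 3.62 FPKM in knockout cells, 21.3 ± 5.88 FPKM in wild-type cells in 2i and 54.6 ± 6.06 FPKM in wild-type cells in FBS (SD, n = 4 each), with differences of 0.64 ± 0.16 (adjusted p = 0.00695) in the knockout and -1.35 ± 0.16 (adjusted p = 8.43e-06) between media. Egr3, at about 1 FPKM, and Ier5 were also higher in the knockout, at 0.56 ± 0.07 (adjusted p = 6.26e-05) for Egr3 and 0.51 ± 0.11 (adjusted p = 0.003) for Ier5, and lower in 2i, at -0.59 ± 0.07 (adjusted p = 7.36e-06) for Egr3 and -0.93 ± 0.11 (adjusted p = 7.65e-06) for Ier5. Mcl1, the only one of the 18 that passed in neither comparison, stood at 0.10 ± 0.06 (adjusted p = 0.185) in the knockout and 0.11 ± 0.06 (adjusted p = 0.134) between media.

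Genes listed for RhoA to SRF signalling were more often higher than lower in the knockout. The list also holds the ternary complex factor genes Elk1, Elk3 and Elk4, and Elk4 is among those higher. Of 20 tested, 8 were higher (40%, against 24% of all genes), 1 was lower (5%, against 21.4%) and 11 did not pass in the knockout. Between media 5 were higher (25%, against 37.1%) and 12 lower (60%, against 35.3%) in 2i than in FBS. Arhgef1, an exchange factor that activates RhoA, averaged 30.1 ± 2.19 FPKM in knockout cells, 19.04 ± 0.665 FPKM in wild-type cells in 2i and 48.8 ± 2.11 FPKM in wild-type cells in FBS (SD, n = 4 each), with no overlap between groups. Its differences were 0.63 ± 0.05 (adjusted p = 3.01e-06) in the knockout and -1.31 ± 0.05 (adjusted p = 6.39e-10) for 2i against FBS. Diaph1, a formin that builds filaments downstream of RhoA, moved by 0.24 ± 0.04 (adjusted p = 0.000587) in the knockout and -0.67 ± 0.04 (adjusted p = 1.73e-08) between media. Fhl2, which codes for an SRF-binding cofactor and is itself an SRF target, moved by 0.62 ± 0.09 (adjusted p = 0.000154) in the knockout and -1.15 ± 0.09 (adjusted p = 1.25e-07) between media. Rhoa itself did not pass, at 0.06 ± 0.04 (adjusted p = 0.222) in the knockout and 0.07 ± 0.04 (adjusted p = 0.0994) between media, with 129 ± 3.61 FPKM in knockout cells, 124 ± 3.65 FPKM in wild-type cells in 2i and 118 ± 2.58 FPKM in wild-type cells in FBS (SD, n = 4 each).

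Contractile and adhesion genes known as MRTF and SRF targets, outside the 41, were divided. Of 16 tested, 5 were higher and 5 lower in the knockout (31.3% each, against 24% and 21.4% of all genes). Between media 4 were higher (25%, against 37.1%) and 8 lower (50%, against 35.3%) in 2i than in FBS. Itga5, the fibronectin receptor subunit, averaged 13.6 ± 0.487 FPKM in knockout cells, 25.9 ± 3.46 FPKM in wild-type cells in 2i and 14.98 ± 1.22 FPKM in wild-type cells in FBS (SD, n = 4 each), lower in the knockout at -0.88 ± 0.08 (adjusted p = 6.59e-06) and higher in 2i at 0.75 ± 0.08 (adjusted p = 3.93e-06). Myl12b, a regulatory light chain, was lower in the knockout at -0.18 ± 0.05 (adjusted p = 0.0167) and higher in 2i at 0.86 ± 0.05 (adjusted p = 2.26e-08), the opposite of Myl9 in both. Pdlim7 stood at 0.24 ± 0.10 (adjusted p = 0.076) in the knockout and -0.93 ± 0.10 (adjusted p = 3.95e-06) for the media. Csrp1 passed in neither, at 0.19 ± 0.08 (adjusted p = 0.0772) in the knockout and 0.05 ± 0.08 (adjusted p = 0.566) between media.

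Genes for the nucleation, capping and turnover of filaments were lower more often than higher in the knockout. Of 26 tested, 13 were lower (50%, against 21.4% of all genes) and 7 higher (26.9%, against 24%) in the knockout. Tmsb10, Arpc4 and Capza2, among the 13, lie on chromosome 6, and the part of its offsets, given with Zyx, was not tested. Between media 13 were lower (50%, against 35.3%) and 9 higher (34.6%, against 37.1%) in 2i than in FBS. Tmsb4x, the gene for thymosin beta-4, which holds actin subunits in reserve, had 366, 383, 325 and 313 FPKM in knockout cells, 152, 145, 143 and 179 FPKM in wild-type cells in 2i and 589, 733, 460.1 and 574 FPKM in wild-type cells in FBS. No group overlapped another, and the differences were 1.16 ± 0.12 (adjusted p = 1.29e-05) in the knockout and -1.91 ± 0.12 (adjusted p = 2.45e-08) between media. Arpc1b, a subunit of the Arp2/3 complex that branches filaments, ran the other way, at -0.90 ± 0.05 (adjusted p = 5.79e-08) in the knockout and 0.77 ± 0.05 (adjusted p = 2.24e-08) between media, with means of 33.2 ± 0.918 FPKM in knockout cells, 62.8 ± 2.32 FPKM in wild-type cells in 2i and 36.5 ± 2.27 FPKM in wild-type cells in FBS (SD, n = 4 each). Rdx, which codes for radixin, a linker of filaments to the membrane, stood at 0.18 ± 0.05 (adjusted p = 0.00912) in the knockout and -0.48 ± 0.05 (adjusted p = 1.31e-06) between media. Every gene of this list passed in at least 1 of the comparisons.

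Among 10 further targets of YAP and TEAD, 5 were higher (50%, against 24% of all genes) and 0 lower (against 21.4%) in the knockout. Between media 4 were higher (40%, against 37.1%) and 3 lower (30%, against 35.3%) in 2i than in FBS. At an unadjusted p under 0.05, 1 gene of this list was lower in the knockout. Axl, a receptor kinase gene, was higher in the knockout at 0.67 ± 0.13 (adjusted p = 0.00152) and lower in 2i at -1.16 ± 0.13 (adjusted p = 5.08e-06). Lats2, which codes for a kinase that holds YAP back, did not pass in the knockout, at -0.17 ± 0.10 (adjusted p = 0.193), and was higher in 2i at 1.33 ± 0.10 (adjusted p = 1.25e-07). Ajuba stood at -0.15 ± 0.06 (adjusted p = 0.0675) in the knockout and was lower in 2i at -0.65 ± 0.06 (adjusted p = 7.66e-07).

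Markers of fibroblasts, which express many of the 41 genes, moved with the knockout difference. Of 22 such markers tested, 18 were higher (81.8%, against 24% of all genes tested) and 1 lower (4.5%, against 21.4%) in the knockout. The median log2 difference was 0.81. Their mean log2(FPKM + 1) per library was 4.21 to 4.85 in knockout cells, 3.64 to 4.08 in wild-type cells in 2i and 2.91 to 3.21 in wild-type cells in FBS. Summed, they held 1106 to 1631 FPKM in knockout cells, 1018 to 1182 FPKM in wild-type cells in 2i and 425.4 to 514 FPKM in wild-type cells in FBS, and none was at 0 in any library. Sparc, Fn1 and Bgn are named as the 3 markers of highest level. Sparc, a matrix glycoprotein gene, and Fn1, the fibronectin gene, were not higher in the knockout, at -0.18 ± 0.11 (adjusted p = 0.198) for Sparc and -0.26 ± 0.08 (adjusted p = 0.0198) for Fn1, while Bgn, which codes for biglycan, was, at 0.88 ± 0.16 (adjusted p = 0.000985).

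Between media the markers went against the members. Of the 22, 14 were higher in 2i than in FBS (63.6%, against 37.1% of all genes tested) and 4 were lower (18.2%, against 35.3%). Their median was 0.93, where 27 of 40 members were lower. To set the members beside the markers in 1 model, the mean marker level of each library was added to the fit as a covariate. With it, 1 member was higher in the knockout, Cnn2 at 0.69 (adjusted p = 0.0198), and 1 was lower, S100a10 at -0.66 (adjusted p = 0.00738). Some differences that no longer passed kept about their size: Tagln2 stood at -0.65 (-0.76 without the covariate), Cnn3 at -0.24 (-0.22), Ccn1 at 0.27 (0.27), Ccn2 at 0.31 (0.27) and Actn4 at 0.18 (0.20). Over all 12329 genes 1972 passed in the knockout with the covariate, 826 higher and 1146 lower, against 5589 without it. The median standard error over the members was 0.18, against 0.11. Between media 25 of the 40 members were lower and 3 were higher with the covariate, against 2926 and 2643 of all 12329 genes. Cnn3, Ccn2 and Myl6 remained higher in 2i. The mean log2 marker levels of knockout and wild type in 2i did not overlap, although their sums did, so the marker level and the genotype cannot be told apart in this fit.

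**Figure D5:**
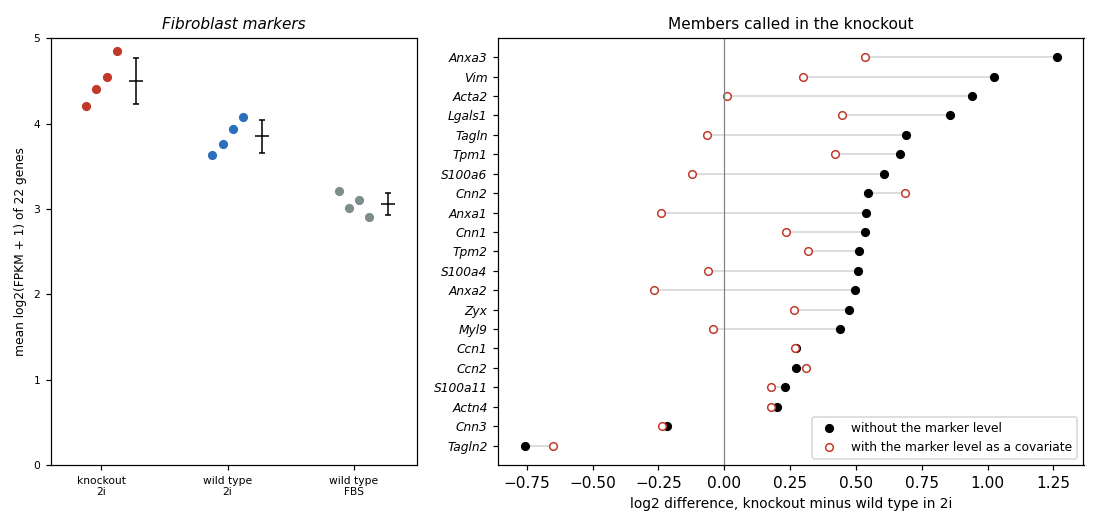
Left, mean log2(FPKM + 1) of 22 fibroblast markers in each library (points) with mean and SD (bars, n = 4 per group). Right, log2 difference of the 21 members called in the knockout, knockout minus wild type in 2i, without (filled) and with (open) that mean as a covariate; Cnn2 stays at 0.55 and 0.69, Acta2 stands at 0.94 and 0.01, and Anxa2 at 0.50 and -0.27.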

How the data were processed

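RNA-seq libraries were made with a TruSeq kit from Trizol-extracted total RNA, per the labels' protocols. The submitters' processing notes name CASAVA 1.8.2, Cufflinks (version not given) and build mm9; no aligner is named in the sources used here. FPKM were deposited by the authors per RefSeq transcript, with bounds and a status, per the file headers. Symbols came from RefSeq and GENCODE name tables for 98.8% of 30761 entries; entries were summed per symbol, and 7 genes touched by failed estimates (23 entries) were left out. FPKM keep no read counts, so depth is unknown and no count test was run. The authors' upper bound lay below the value itself in 252 of 672 values of the members' entries, so the bounds were not used.

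Genes that reached 1 FPKM in 4 or more of the libraries were tested with limma 3.58.1 (R 4.3.3) on log2(FPKM + 1): 1 mean per group, all 12 libraries, eBayes with an intensity trend, two-sided, Benjamini-Hochberg adjusted over 12329 genes. Every adjusted p is from limma. Whether the libraries of a group stem from separate cultures is not stated in the labels; the p-values reflect the spread between libraries alone, which may be technical. The model was run on simulated data with 200 of 12329 genes changed and noise independent between libraries. Of 1.5-fold changes it recovered 71.6% in the knockout comparison and 72.7% between media, with 4.13% and 5.25% of calls false. The real data had far more calls, 5589 and 8928, so these rates may not hold for them. The members, lists, markers and alternatives were chosen with earlier results of these data known, and no list was tested. Values in every library were given for members that differed by 0.5 or more on the log2 scale with an adjusted p under 0.05 in either comparison, the highest-expressed of each role, and Srf; for other lists, the 3 genes of smallest adjusted p and the highest-expressed that did not pass; of the markers, the 3 fibroblast markers of highest mean level and Pou5f1; Fos and Egr1 were added after their values were seen. Python 3.11.15, pandas 2.3.3 and matplotlib 3.10.9 were used. Promoter windows came from RefSeq (GRCm38.p6).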

Additional observations from a re-analysis of the deposited data

Results flagged for a closer look

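In 5 of the 120 pairs of a member and a group, 1 library of the 4 stood far from the other 3, past the critical value of Dixon's test; chance gives about 1 in 20. Tagln stood at 48.8 FPKM in FBS replicate 1, against 28.6 to 30.8 FPKM in its group's other libraries. Tln1 stood at 21.1 FPKM in the same library, against 18.4 to 18.8 FPKM. Tpm1 stood at 92.5 FPKM in knockout replicate 2, above the 73.9 to 76.5 FPKM of the rest. Pfn1 stood at 557 FPKM in knockout replicate 2, below the 578 to 581 FPKM of the rest. Ccn1 stood at 76.0 FPKM in FBS replicate 4, below the 89.8 to 91.8 FPKM of the rest.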

How the results depend on the processing

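The results were recomputed with a pseudocount of 0.1, with the filter dropped or raised to 5 FPKM, with TPM, quantile or median-ratio scaling, with 8 libraries in place of 12, with the highest entry per symbol, with a replicate block, with the fibroblast marker level as a covariate, and with each library left out. Under all of them that gave a value, except the covariate, 14 of the 21 knockout calls and 30 of the 32 medium calls of members held; Cnn1 and Acta1 did not pass the filter of 5 FPKM and were not tested there. In the knockout, quantile normalization left 1 member lower (2 in the main result). With the covariate, 1 member was higher (19 without it), 1 was lower (2) and 1972 genes passed (5589), and 6 called members changed sign: Tagln to -0.066, Myl9 to -0.042, Anxa1 to -0.24, Anxa2 to -0.27, S100a4 to -0.064 and S100a6 to -0.12. Others that no longer passed kept about their size, as Cnn3 at -0.24 (-0.22 without it) and Ccn1 at 0.27 (0.27). Between media, the covariate left 3 members higher (5 without it) and 5569 genes (8928), and Actn1 went to -0.0070. The mean log2 marker levels of knockout and wild type in 2i did not overlap. Leaving out 1 library gave 13 to 19 members higher, 2 to 3 lower and 4710 to 5922 genes in the knockout, and 5 to 6 members higher, 25 to 28 lower and 8506 to 8966 genes between media. Without the filter 13 members were higher in the knockout. The labels give the replicates only a number; between knockout and wild type in 2i, deviations of libraries with the same number correlated at r = 0.06 to 0.26, over 0.1 in 3 of 4 pairs, so pairing, which needed every pair over 0.1, was not taken as given. With the replicate block, 18 members were higher, 2 lower and 5567 genes passed in the knockout (Myl9 and S100a4 were lost, adjusted p = 0.0666 and 0.0594, and Junb passed, adjusted p = 0.0452), and 6 were higher, 27 lower and 8899 genes passed between media (Ier2 passed, adjusted p = 0.0435). Depth is unknown, so what it limits could not be measured.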

Other observations

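Markers of other cells that use the same genes were low or mixed. Of 10 markers of smooth and skeletal muscle, 8 did not reach the filter and were at most 0.617 FPKM in any library, the smooth muscle myosin gene Myh11 and the muscle regulator genes Myocd, Myod1 and Myog among them. Des and Smtn were tested; Des, the muscle intermediate filament gene desmin, averaged 13.8 ± 1.55 FPKM in knockout cells, 10.1 ± 1.68 FPKM in wild-type cells in 2i and 5.86 ± 1.76 FPKM in wild-type cells in FBS (SD, n = 4 each). Of 14 markers of parietal and visceral endoderm 7 were tested. In the knockout 3 were higher (42.9%, against 24% of all genes tested) and 1 was lower (14.3%, against 21.4%). Between media 1 was higher (14.3%, against 37.1%) and 4 lower (57.1%, against 35.3%) in 2i than in FBS. Both genes, Des and Lama1, are named outside the rule. Lama1, a laminin chain gene of basement membranes, averaged 2.28 ± 0.21 FPKM in knockout cells, 6.04 ± 2.32 FPKM in wild-type cells in 2i and 8.44 ± 2.83 FPKM in wild-type cells in FBS. Its mean was lower in the knockout than in wild type in 2i, against the direction of the 3 endoderm markers called higher.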
